A study of Saccharomyces cerevisiae with 6 samples.

Results

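Loss of NMD2 and loss of NAM7, genes for core factors of nonsense-mediated mRNA decay, were compared directly in pooled Saccharomyces cerevisiae DAmP strains. A DAmP strain carries a resistance cassette behind the coding sequence of an essential gene, so that its mRNA has an extended 3' end with the strain's molecular barcode. All probes that had a gene symbol and a value on the 2 NMD2 arrays and the 2 NAM7 arrays were taken and averaged per gene, which gave 490 genes of the 671 named genes with a value on any of the 6 arrays of the series. A value on the arrays of the YEL068C deletion pool, the reference of the study, was not required. It was present on both YEL068C arrays for 433 of the 490 genes.

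Nonsense-mediated decay removes mRNAs on which the ribosome stops far from the normal 3' end of a transcript, which includes mRNAs with a long 3' untranslated region. NAM7 encodes Upf1, the RNA helicase at the centre of the pathway, and NMD2 encodes Upf2, which joins Upf1 to Upf3 and stimulates the helicase. The comparison asks whether extended mRNAs reach the same relative levels when one or the other factor is missing.

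Each pool was a mix of haploid double mutants derived from BY4742/BY4741, made by crossing the DAmP pool with a NMD2, NAM7 or YEL068C deletion and grown for 18 generations under G418 and nourseothricin, which keep the cassettes of both alleles. RNA barcodes were labelled with Cy3 and hybridised against Cy5-labelled barcodes of genomic DNA, extracted from a separate aliquot of the same cells, with the dyes never swapped. The 2 arrays of a pool are technical replicates that start at the harvested cells, so every error and p-value given here measures technical spread within 1 cross per deletion. Values are taken as log2 ratios of a barcode's RNA signal to its DNA signal, centred on the median of the 490 genes on each array, and are called levels. Each YEL068C array was centred on those of the 490 genes that had a value on it, so its levels have a slightly different zero. Genes without a value on a YEL068C array had a median level of 0.325 on the mutant arrays, against -0.0325 for the others. Base 2 is an inference from how far the values range. The numerator is not stated in the labels. A list of abundant mRNAs was used to choose it, of which all 12 measured members lay below 0 in the deposited sign on each of the 4 arrays (medians -3.71 to -3.29). The sign was therefore turned. If RNA were the denominator after all, higher and lower would be exchanged throughout. A higher RNA signal and a lower DNA signal cannot be told apart in such a ratio.

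The labels of the pools were looked at through genes without a value, since neither NMD2 nor NAM7 had one. PDS5, SEC14, UTP15 and NTR2 had a value on both NMD2 arrays and on neither NAM7 array, and the first 3 of these lie within 100 kb of NAM7. MED6, QNS1, SAM35, HEM12, RPS15 and SHQ1 had a value on both NAM7 arrays and on neither NMD2 array, and the first 3 of these lie within 100 kb of NMD2. Among the 490 genes, 4 lay that close to NAM7 and 6 that close to NMD2. Double mutants are rare in such a cross when the alleles are close on a chromosome.

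The pools had nearly the same profile of extended mRNA levels. The 5 highest genes over the 4 arrays were ILV5 of branched-chain amino acid synthesis, the glycolytic genes PGK1 and CDC19, the chaperonin gene HSP60 and RPB10, whose product is common to RNA polymerases I, II and III. ILV5 stood at 5.36 and 5.91 on the NMD2 arrays and at 5.35 and 5.90 on the NAM7 arrays. PGK1 stood at 5.19 and 5.93 without NMD2 and at 4.91 and 5.64 without NAM7, and these arrays overlapped. The lowest levels belonged to the primase gene PRI2, the GPI anchor gene GPI15, the TORC2 gene AVO1, the nuclear envelope gene BRR6 and the checkpoint kinase gene MEC1. PRI2 stood at -3.29 and -3.37 in the NMD2 pool and at -3.41 and -3.64 in the NAM7 pool. Across the 490 genes the pool means correlated with Pearson's r = 0.99 and Spearman's rho = 0.99, given as a description of values that share probes, barcodes and deviations of same-numbered arrays. NMD2 and NAM7 arrays of different numbers correlated with r = 0.91 and 0.90. The 2 arrays of a pool correlated with r = 0.91 for NMD2 and 0.91 for NAM7.

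Arrays of different pools were closer to each other than arrays of the same pool, provided that they carried the same number. The median absolute difference per gene was 0.19 between the NMD2 and NAM7 arrays numbered 1 and 0.14 between those numbered 2. Between the 2 arrays of a pool it was 0.37 for NMD2 and 0.40 for NAM7. The deviations of same-numbered arrays from their pool means correlated across genes with r = 0.89 and rho = 0.85. PMA1, the plasma membrane proton pump gene, which is named here after its values were seen, stood at 0.44 and 4.82 on the NMD2 arrays and at 0.39 and 4.81 on the NAM7 arrays. The PMA1 level thus depended on the array number by more than 4 log2 units and on the pool by 0.03. All differences between pools were therefore taken between same-numbered arrays, and the titles do not say what these arrays shared.

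**Figure D1:**
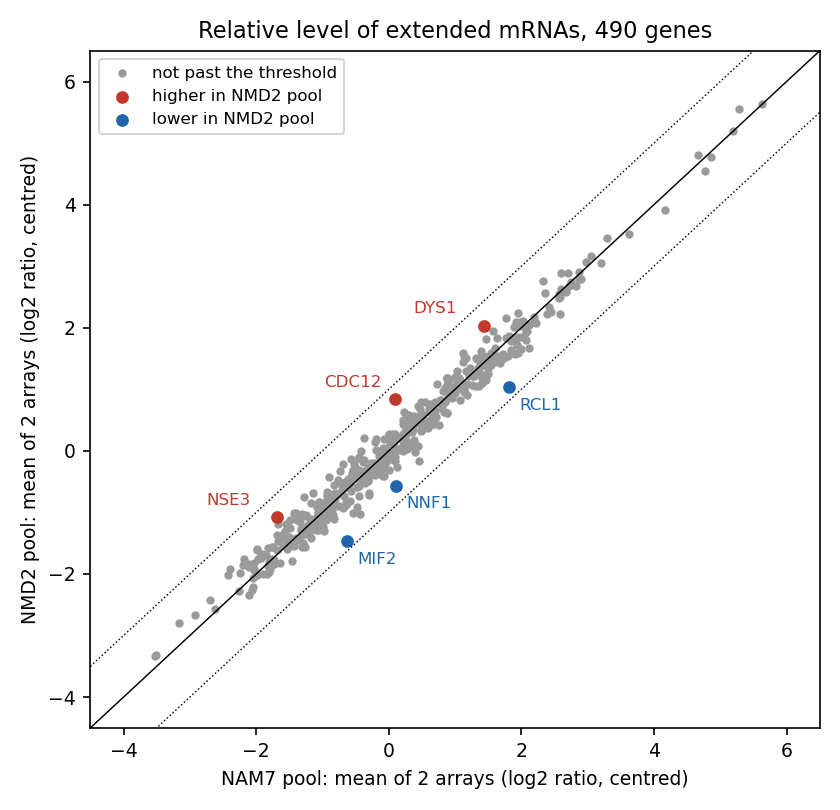
Mean level of each of 490 genes in the NMD2 pool (vertical) against the NAM7 pool (horizontal), as centred log2 ratios of RNA to DNA, with 2 arrays per pool. The solid line marks equal levels and the dotted lines a difference of 1, which no gene reaches, and the 6 coloured genes passed the test between the pools.

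Differences between the pools were small for most genes. The mean difference, NMD2 minus NAM7, lay within 0.25 of 0 for 380 genes (77.6%) and within 0.5 for 479 genes (97.8%), and ranged from -0.84 to 0.74. It was at least 1 in size for 0 genes. By limma with the array number as a block, the 95% interval of the difference lay wholly within 1 log2 unit of 0 for 486 of 490 genes (99.2%) and within 0.5 for 330 genes (67.3%). The exceptions to the wider bound were MIF2 (-1.20 to -0.48), RCL1 (-1.06 to -0.49), DBP10 (-1.03 to -0.28) and CDC12 (0.39 to 1.08). Without the block, where the spread between numbers enters the error, the interval lay within 1 for 317 genes (64.7%) and within 0.5 for 0 genes. The size of the difference depended little on the level. The median absolute difference was 0.17 in the 123 genes with the lowest levels and 0.13 in the 123 genes with the highest levels.

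The differences recurred in part between the array pairs, which share no array. They correlated across genes with r = 0.37 and rho = 0.36 over 490 genes, and with r = 0.31 when the 6 genes that passed the test were left out. The sign was the same in both pairs for 305 genes (62.2%), 178 of them higher (36.3%) and 127 lower (25.9%) in the NMD2 pool. The 2 arrays of one pool lay entirely above or below those of the other for 90 genes (18.4%), with the NMD2 arrays above for 47 (9.59%) and below for 43 (8.78%). Both pairs differed by at least 0.5 in the same direction for 4 genes (0.816%). These were DYS1 and RIA1, higher in the NMD2 pool (0.408%), and RCL1 and NNF1, lower in it (0.408%).

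**Figure D2:**
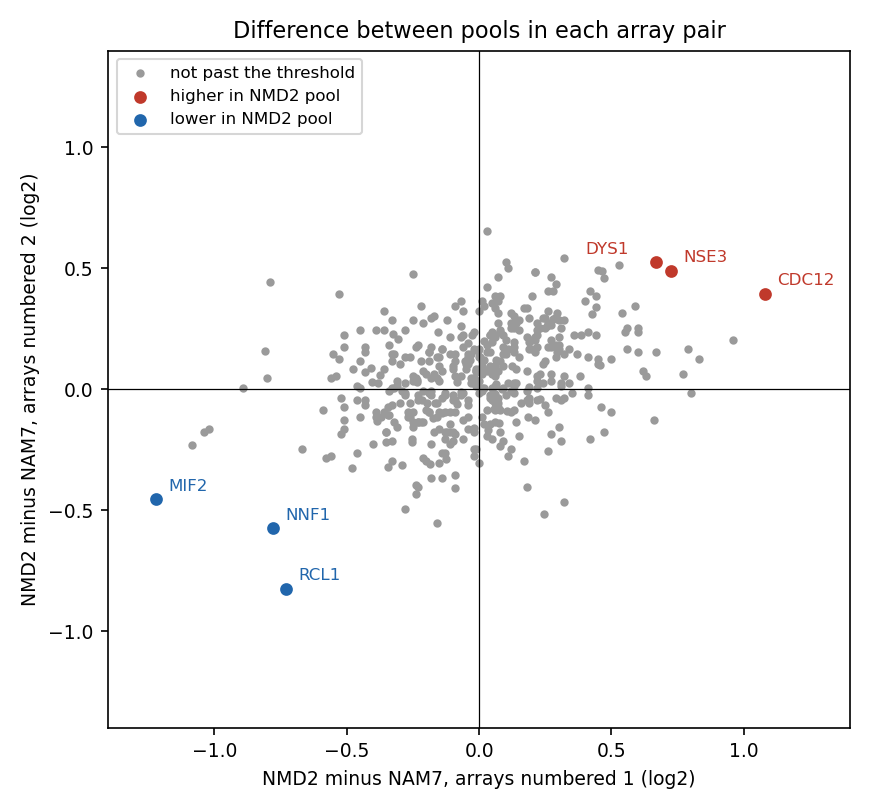
Difference NMD2 minus NAM7 for each of 490 genes, with arrays numbered 1 on the horizontal axis and arrays numbered 2 on the vertical axis, in log2 units. Grey points scatter around 0 in both pairs, and the 6 coloured genes lie at the lower left and upper right.

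In the test over all 490 genes, 6 genes (1.22%) passed a Benjamini-Hochberg threshold of 0.05, 3 higher (0.612%) and 3 lower (0.612%) in the NMD2 pool, and 77 genes had an unadjusted p under 0.05. The lower genes were MIF2 and NNF1 of the kinetochore and RCL1 of the small-subunit processome. The higher genes were the septin gene CDC12, the Smc5-Smc6 gene NSE3 and the deoxyhypusine synthase gene DYS1. For each of them the arrays of the pools did not overlap, which held for 18.4% of all genes. The 6 genes were chosen by the difference between these same arrays, so this adds no support. These calls were close to the threshold and depended on the model. Without the block 0 genes passed (limma, 2 genes at an unadjusted p under 0.05), and over the 433 genes of all 6 arrays, with the block, only RCL1 did. With the 10 genes within 100 kb of a deleted locus left out, an alternative added after the data were seen, 0 genes passed (66 at an unadjusted p under 0.05) and the smallest adjusted p was 0.0522 in limma, for RCL1.

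RCL1 encodes a processome protein that acts in the cleavage of precursor ribosomal RNA. It stood at 0.85 and 1.23 on the NMD2 arrays and at 1.58 and 2.05 on the NAM7 arrays. The YEL068C arrays, at 1.83 and 2.01, lay in the range of the NAM7 arrays. RCL1 was lower in the NMD2 pool by 0.73 in arrays numbered 1 and by 0.82 in those numbered 2, a mean of -0.78 (SE 0.13, limma adjusted p = 0.0222), or 1.71-fold if the base is 2.

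MIF2 encodes the yeast counterpart of CENP-C, which binds centromeric chromatin. Its level was -1.43 and -1.50 without NMD2, -0.21 and -1.04 without NAM7 and -0.34 and -0.58 without YEL068C. The difference of -0.84 (SE 0.17, limma adjusted p = 0.0352) was uneven, -1.22 in one array pair and -0.46 in the other.

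NNF1 encodes a subunit of the MIND complex, which joins the inner kinetochore to the microtubule-binding complexes. It stood at -0.42 and -0.71 without NMD2, at 0.36 and -0.13 without NAM7 and at 0.42 and 0.07 without YEL068C. The difference was -0.68 (SE 0.13, limma adjusted p = 0.0352). For MIF2, NNF1 and RCL1, both NMD2 arrays were lower than every array of the other pools. These genes were chosen by the difference from the NAM7 arrays, and the share of all genes with this pattern was not counted.

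CDC12 encodes a septin of the ring at the bud neck. It stood at 0.95 and 0.73 in the NMD2 pool and at -0.13 and 0.33 in the NAM7 pool, and had no value on either YEL068C array. The difference of 0.74 (SE 0.16, limma adjusted p = 0.0449) was 1.08 in arrays numbered 1 and 0.40 in those numbered 2.

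NSE3 encodes a subunit of the Smc5-Smc6 complex of chromosome maintenance. Its level was -0.86 and -1.30 on the NMD2 arrays, -1.59 and -1.79 on the NAM7 arrays and -1.45 and -1.65 on the YEL068C arrays. The difference of 0.61 (SE 0.14, limma adjusted p = 0.0449) was the same for its 2 probes, 0.60 and 0.61.

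DYS1 encodes the enzyme that starts the hypusine modification of translation factor eIF5A. It stood at 2.23 and 1.84 on the NMD2 arrays, at 1.56 and 1.31 on the NAM7 arrays and at 0.56 and 0.22 on the YEL068C arrays. The difference was 0.60 (SE 0.13, limma adjusted p = 0.0449). DYS1 was thus highest without NMD2, intermediate without NAM7 and lowest in the reference, with no overlap between pools. How many of all genes show such an order was not counted. CDC12 and DYS1 both lie within 100 kb of NMD2, and the part of this position in their differences was not tested.

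**Figure D3:**
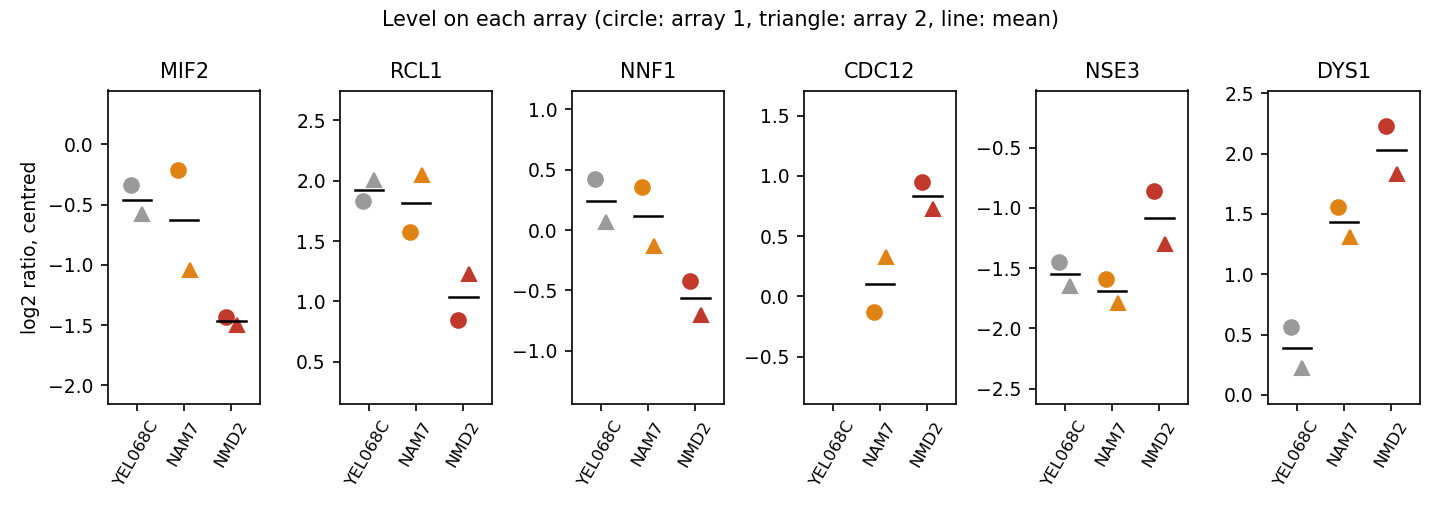
Level of the 6 genes that passed the test on each array, as centred log2 ratios, with circles for arrays numbered 1, triangles for arrays numbered 2 and a line at the mean of 2 arrays. All panels span the same number of log2 units. CDC12 has no value in the YEL068C pool, and MIF2, RCL1 and NNF1 are lowest in the NMD2 pool.

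Another 14 genes belonged to the 10 highest and 10 lowest when genes were ordered by the smaller of their 2 pair differences, and did not pass the test. Among the higher ones, RIA1, a GTPase gene of late large-subunit maturation, differed by 0.53 and 0.51 (mean 0.52, adjusted p = 0.103 in limma), and the cohesin gene MCD1 differed by 0.47 and 0.49 (mean 0.48, adjusted p = 0.144 in limma). The thioredoxin reductase gene TRR1 differed by 0.47 and 0.46, and LST8, a subunit of both TOR complexes, by 0.45 and 0.50. The arrays of the pools did not overlap for TRR1 and LST8 and overlapped for RIA1 and MCD1. The splicing gene PRP46 (0.42 and 0.41), the UDP-glucose pyrophosphorylase gene UGP1 (0.44 and 0.39) and the GPI anchor gene PGA1 (0.40 and 0.37) completed the higher group.

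Of the lower ones, 3 others encode proteins of ribosomal RNA processing. UTP23 of the processome differed by -0.48 and -0.33, the helicase gene DHR2 by -0.58 and -0.29 and PXR1 by -0.29 and -0.32. The remaining ones were RPC53 of RNA polymerase III (-0.35 and -0.32), RPA190, the largest subunit of RNA polymerase I (-0.33 and -0.30), the origin recognition gene ORC5 (-0.28 and -0.50) and the thymidylate kinase gene CDC8 (-0.56 and -0.28). The arrays did not overlap for UTP23, DHR2, RPC53 and CDC8. The genes of both groups were ordered by differences between these same arrays, so non-overlap adds no support. Adjusted p-values of these 7 genes ranged from 0.177 to 0.308 in limma.

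Genes were also grouped by function in 24 lists, which held 408 of the 490 genes, 15 of them in more than 1 list. Counts and medians of a list are descriptions, set beside those of all genes, of which 54.5% lay above 0 and 45.5% below, with a median difference of 0.02. In that background the NMD2 arrays lay entirely above the NAM7 arrays for 9.59% of genes and entirely below for 8.78%. Of all genes 0.612% passed the test as higher and 0.612% as lower.

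Genes of ribosome assembly stood mostly lower in the NMD2 pool. Of 32 measured genes for assembly of the large subunit, 0 passed the test, 26 (81.2%) lay below 0 and 22 lay below 0 in both array pairs, against 4 above 0 in both. Their median difference was -0.14, with medians of -0.15 in arrays numbered 1 and -0.12 in arrays numbered 2. Both NMD2 arrays lay below both NAM7 arrays for 9 of them (28.1%) and above for 0. The members with the smallest p-values were DBP10, an RNA helicase gene (-0.66, adjusted p = 0.14 in limma), NSA1 (-0.36) and EBP2 (-0.36). DBP10 stood at -0.55 and -0.56 on the NMD2 arrays and at 0.53 and -0.33 on the NAM7 arrays, so that its difference came mostly from the arrays numbered 1.

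For the processome and other steps of small-subunit assembly, 34 genes were measured, of which RCL1 passed as lower and 0 as higher. Below 0 were 22 genes (64.7%), 16 of them in both pairs, against 7 above 0 in both, and the median difference was -0.09. The arrays did not overlap for 5 lower genes and 2 higher ones. DHR2 and UTP23 had the smallest p-values after RCL1. Subunits of the RNA polymerases, 16 in number, lay below 0 in 11 cases (68.8%) with a median of -0.09, and 0 passed. Only 6 of them lay below 0 in both pairs, against 3 above 0 in both. Their median was -0.15 in arrays numbered 1 and -0.035 in those numbered 2. RPA190 and RPC53 differed by -0.31 and -0.33, and RPA43 of RNA polymerase I by -0.26. That ribosome biogenesis genes stand lower in the NMD2 pool had been seen in these data before the lists were drawn up, so these counts are not independent evidence of it. Under quantile normalization the medians of the large-subunit and small-subunit lists kept their sign.

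Genes of chromosome segregation went in both directions. Of 15 kinetochore and spindle genes, MIF2 and NNF1 passed as lower and 0 as higher, while 8 lay above 0, 7 below and the median was 0.03. DUO1 of the DAM1 ring, which attaches kinetochores to microtubules, had the next smallest p-value and differed by 0.34. MIF2 and NNF1 thus stood beside other kinetochore genes with differences above 0, also among centromeric and MIND genes. The MIND gene NSL1 differed by 0.25 and the centromeric gene CSE4 by 0.08. DSN1, also of MIND, differed by -0.26, with -0.56 in arrays numbered 1 and 0.045 in those numbered 2. Among 10 genes of the SMC complexes and the anaphase-promoting complex, NSE3 passed as higher, 8 lay above 0 and the median was 0.20. MCD1 and SMC1, which encode cohesin subunits, differed by 0.48 and 0.37. The 2 genes below 0 were MMS21 (-0.13) and NSE1 (-0.07), which belong to the Smc5-Smc6 complex like NSE3. Of 11 genes for mitotic exit, polarity and septins, CDC12 passed as higher and 8 lay above 0, with a median of 0.04. The mitotic exit phosphatase gene CDC14 differed by 0.43 and HYM1 of the RAM network by 0.27, and the arrays did not overlap for either. DNA replication genes had a median of 0.00 over 25 genes, 13 above and 12 below 0, and 0 passed. ORC2 and ORC5, which encode subunits of the same origin recognition complex, differed by 0.37 and -0.39.

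**Figure D4:**
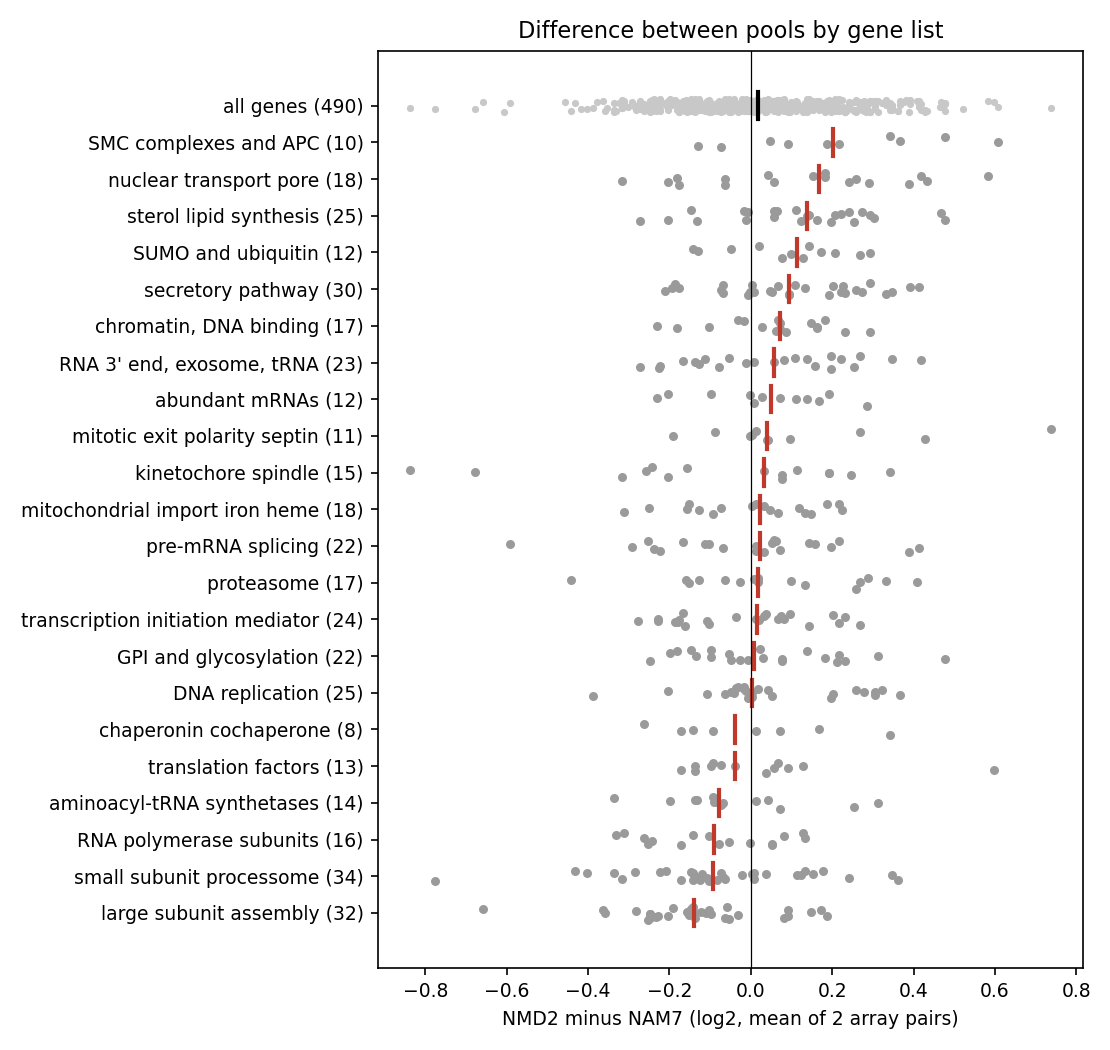
Difference NMD2 minus NAM7 of each gene (grey points, log2, mean of 2 array pairs) in the lists with at least 8 measured genes, whose number stands in brackets, with the list median as a red bar and that of all 490 genes as a black bar. The large-subunit assembly list has the lowest median, -0.14, and the SMC complexes the highest, 0.20.

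In RNA processing, 22 splicing genes had a median difference of 0.02 and 0 passed. AAR2, which encodes a factor in the assembly of the U5 particle, stood at -1.21 and -0.84 in the NMD2 pool and at -0.19 and -0.68 in the NAM7 pool, without overlap (mean difference -0.59, adjusted p = 0.154 in limma). PRP46 and SUB2 differed by 0.41 and 0.39. Among 23 genes for RNA 3' ends, the exosome and tRNA processing the median was 0.06, and the NMD2 arrays lay entirely above for 6 (26.1%) and entirely below for 0. YTH1 of the cleavage and polyadenylation factor differed by 0.42, RPP1 of RNase P by 0.35 and the exosome gene CSL4 by -0.27. Transcription initiation and Mediator genes had a median of 0.02 over 24 genes, with TFG2 (-0.28), SRB4 (0.23) and SSL1 (-0.23) at the smallest p-values. The median was 0.07 for 17 chromatin and DNA-binding genes, of which 12 lay above 0, among them RSC9 of the RSC remodeller (0.29) and SPT16 of the FACT complex (0.23), while the histone gene HTB1 differed by -0.23. In each of these lists 0 genes passed.

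Nuclear transport genes lay above 0 in 12 of 18 cases, 10 of them in both pairs, with a median of 0.17, and 0 passed. The Ran-binding gene YRB2 differed by 0.58, 0.96 in arrays numbered 1 and 0.20 in arrays numbered 2, and the nucleoporin genes NUP85 and NUP145 by 0.43 and 0.42. Sterol and lipid synthesis genes lay above 0 in 18 of 25 cases, 15 of them in both pairs, with a median of 0.14. ACP1, the mitochondrial acyl carrier protein gene (0.48), ERG8 (0.47) and ERG9 (0.30) of sterol synthesis had the smallest p-values, and 0 passed. Secretory pathway genes lay above 0 in 21 of 30 cases with a median of 0.10, among them the prenyltransferase gene BET2 (0.41) and the TRAPP gene TRS120 (0.35). GPI anchor and glycosylation genes divided evenly, 11 above and 11 below 0, with GPI12 at 0.48, GPI18 at 0.31 and PSA1 at -0.25. Of the secretory and GPI lists 0 genes passed.

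Protein turnover and folding genes gave 0 calls. The 17 proteasome genes had a median of 0.02, and the catalytic subunit genes PRE3 and PRE2 differed by 0.41 and -0.44, PRE2 by -0.89 in one pair and 0.01 in the other. The 12 SUMO and ubiquitin genes had a median of 0.11 with 9 above 0, among them MET30 (0.29), ULP1 (0.27) and UBC9 (0.21). The 8 chaperonin and co-chaperone genes had a median of -0.04, with SIS1 at 0.34, CCT7 at -0.26 and CNS1 at -0.17.

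In translation, 14 aminoacyl-tRNA synthetase genes had a median of -0.08 and 9 lay below 0, with CDC60 at -0.34, WRS1 at 0.31 and FRS2 at 0.25. Of 13 translation factor genes DYS1 passed as higher, and the others with the smallest p-values were TIF34 at -0.17 and GCD2 at -0.14. The 18 genes of mitochondrial import, iron-sulfur cluster and heme synthesis had a median of 0.02, with the heme genes HEM13 (-0.31) and HEM1 (-0.25) and the iron-sulfur gene CIA1 (0.22) at the smallest p-values. Of 4 actin genes 3 lay above 0, ARC35 at 0.43, the profilin gene PFY1 at 0.28 and ARP2 at 0.05. The 12 abundant mRNAs had a median of 0.05, with PGK1 at 0.28, HTB1 at -0.23 and the desaturase gene OLE1 at -0.20. Of the decay factors and deleted loci 1 gene was measured, the decapping enzyme gene DCP2. It stood at -0.03 and -0.26 on the NMD2 arrays, at -0.32 and -0.44 on the NAM7 arrays and at 0.59 and 0.60 on the YEL068C arrays. The DCP2 difference of 0.24 between NMD2 and NAM7 did not pass (adjusted p = 0.4 in limma). The arrays did not overlap, which held for 18.4% of all genes.

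Genes near the deleted loci were set apart, because strains carrying both alleles are few when these are linked. Of the 6 genes within 100 kb of NMD2, 5 lay above 0, with a median difference of 0.28. Besides DYS1 and CDC12 these were RPP1 (0.35), which stood at 0.16 and 0.12 in the NMD2 pool and at -0.05 and -0.37 in the NAM7 pool, MAS2 of mitochondrial protein processing (0.22) and the P450 reductase gene NCP1 (0.06). MYO1, the myosin gene of the bud neck, differed by -0.07. The 2 of these genes within 50 kb, DYS1 and RPP1, had a median of 0.47, whereas the 12 genes within 200 kb had a median of -0.03. Of the 4 genes within 100 kb of NAM7, 0 passed. The kinetochore gene SPC24 and the helicase gene ECM16 both differed by -0.32, and MCM1 and ARP9 by 0.03 and 0.09. The NMD2 arrays lay entirely below the NAM7 arrays for SPC24 and ECM16, which held for 8.78% of all genes. The other 480 genes had a median of 0.02 and held 4 of the 6 genes that passed. Thus 2 of 6 genes near NMD2 passed, against 1.22% of all genes.

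**Figure D5:**
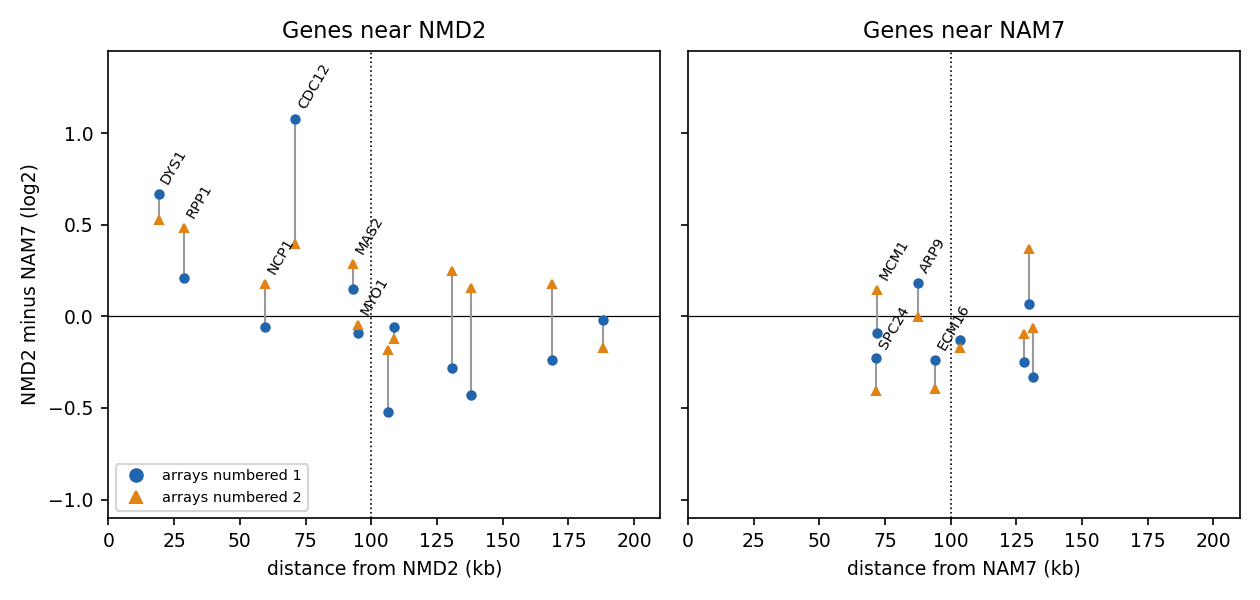
Difference NMD2 minus NAM7 (log2) of genes within 200 kb of NMD2 (left) and NAM7 (right) against their distance from that gene in kb, with arrays numbered 1 as circles and arrays numbered 2 as triangles joined by a line. Genes within 100 kb, left of the dotted line, are named, and DYS1, RPP1, CDC12 and MAS2 lie above 0 in both array pairs.

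The difference between the pools varied little with coding length. The median difference ran from 0.00 to 0.04 over the 6 length classes, from 20 genes of up to 500 nucleotides (0.04) to 52 genes over 3000 nucleotides (0.03). Across 490 genes Spearman's rho between difference and coding length was -0.01, with 0.03 in arrays numbered 1 and -0.05 in arrays numbered 2, as a description. The levels themselves had a rho of -0.14 with coding length in either pool. Of the 4 longest genes, MDN1, a ribosome assembly ATPase gene of 14733 nucleotides, differed by -0.25, the RAS regulator gene IRA1 by -0.32, UTP20 of the processome by -0.12 and MEC1 by 0.05. IRA1 differed by -0.81 in one array pair and by 0.16 in the other. Of the 4 shortest, RPB10 (213 nucleotides) differed by 0.13, the SUMO gene SMT3 by 0.08, the Mediator gene SRB6 by -0.18 and ACP1 by 0.48. None of these 8 genes passed in limma.

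The 57 genes that lacked a value on at least 1 YEL068C array could be compared here because that pool was not required. The median absolute difference was 0.14 both in them and in the other 433 genes, and the SD of the differences was 0.20 and 0.22. Their differences ranged from -0.34 to 0.74, and those of the other genes, which held all 3 lower calls, from -0.84 to 0.61. Of these genes 33 had a level above 0, and the group ranged from BRR6 at -2.79 to HSP60 at 4.81. CDC12 was the only one of the 57 that passed. The next smallest p-values belonged to BET2, which differed by 0.67 and 0.16, IMP4 of the processome (-0.51 and -0.17), WRS1 (0.10 and 0.53) and CCT7 (-0.35 and -0.18), and none of these passed in limma.

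Spots gave a check of the measurement within arrays. For 94 genes with 2 probes the difference between pools correlated between the probes with r = 0.95 and rho = 0.95, as a description of spots that share array and dyes. Whether the 2 probes of a gene read the same barcode is not known, since up and down tags were not told apart. The probes of a gene differed in it by a median of 0.05 and by at most 0.17. DBP10 gave -0.66 from either probe, MCD1 0.51 and 0.44, and TRR1 0.49 and 0.44.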

How the data were processed

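Barcode arrays of 2 colours were read for pools carrying a deletion of NMD2, NAM7 or YEL068C, 2 arrays per pool. The authors deposited log ratios of the dyes, with no base given in the sources used here and read as log2 from their range, in one table of 15743 probe rows, 843 of them with a value. Per the labels, the dyes carry barcodes from RNA and genomic DNA. Aligning, scaling and background steps are not given in the sources used here, each column has a median of 0, and depth is unknown, so the number of arrays limits the precision. The platform table named the genes, and RefSeq (R64) gave coding lengths and neighbours for all 490 genes (96.9% of lengths multiples of 3). Up and down tags were not told apart.

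Values were turned in sign, averaged per gene over probes valued on the 4 arrays and centred. The test of a difference was limma's moderated statistic (version 3.58.1 under R 4.3.3), two-sided with 95% intervals and Benjamini-Hochberg adjustment over 490 genes. The array number was a block, which leaves 1 residual degree of freedom per gene beside the shared prior (12.5). The block follows from taking differences between same-numbered arrays. The numbers come from the sample titles, and deviations of same-numbered arrays correlated with r = 0.89. The fit was tested on simulated data.

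Members, 24 gene lists with 1024 entries, tests and alternatives were chosen with earlier results of these data known. Genes were named by rule: those passing (up to 12 each way), the 10 highest and 10 lowest by the smaller pair difference, 3 per list, those near a deleted locus or missing in 1 pool, the 5 highest and lowest levels, 5 without YEL068C values, and the 4 longest and shortest. Alternatives changed the block, arrays, centring, normalization, probes, filters and prior.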

Additional observations from a re-analysis of the deposited data

How the results depend on the processing

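The count of 6 genes, from a fit with 1 residual degree of freedom per gene, moved with the model. It was 0 with no replicate block, which is the fit without pairing, 1 (RCL1) with all 6 arrays and the block, 14 probes (12 genes) with each probe on its own, 20 with quantile normalization and 22 with a trended and robust prior. The last 3 settings included all 6 genes, but they refit the same 4 arrays and are not independent of the first fit. The prior had 30.0 degrees of freedom with each probe on its own and 122 with quantile normalization, against 12.5 in the first fit. The count was 5 when genes whose arrays of a pool differed by over 1 were left out. It was 0 with no centring and 0 with unnamed probes kept, where 8 genes had a residual SD of 0 and the prior fell from 12.5 to 2.5 degrees of freedom. Without centring and without those 8 genes, an alternative added after seeing the data, 11 genes passed, the 6 among them. Without genes linked to a deleted locus, also added, it was 0. A block cannot be combined with leaving out 1 array of 4. Without the block, leaving out each array gave 0 to 1 genes, the 1 being PMA1, and 0 intervals within 1, and all 4 arrays without the block gave 317 against 486. Of the 6 genes, none changed sign in any alternative that included it. Their arrays did not overlap between the pools, so leaving out an array or the block could not turn the sign. The other alternatives used the same arrays, so the kept signs add no support. Differences of at least 0.3 in both pairs were shared by 20 genes and of at least 1 by 0, against 4 at 0.5.

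Some named genes that did not pass changed sign, and each value here is the NMD2 pool minus the NAM7 pool in log2 units. With probes without a symbol kept, the sign was turned for CDC19 (0.0075). With quantile normalization, the sign was turned for GPI15 (-0.1675), ILV5 (-0.1069), MEC1 (-0.1562) and PRI2 (-0.1137). The cause was not tested for these genes. Leaving out 1 array with no block sets the mean of both array numbers in one pool against a single array number in the other. The value then holds the difference between array numbers, so the signs that follow do not measure how stable the difference between pools is. Without NAM7 replicate 1, fitted with no block, it was turned for ARP2 (-0.0112), ARP9 (-0.1588), ERG8 (-0.2487), FRS2 (-0.7188), ILV5 (-0.2687), IMP4 (0.2162), MCM1 (-0.0837), MEC1 (-0.2037), MET30 (-0.0487), NUP85 (-0.0937), PGK1 (-0.0788), SMC1 (-0.0038), SMT3 (-0.1913), SPT16 (-0.7737), SRB4 (-0.3137), SRB6 (0.0538), SUB2 (-0.0563) and UBC9 (-0.0038). Without NAM7 replicate 2, fitted with no block, it was turned for CDC19 (0.4012), CIA1 (-0.2387), GPI15 (-0.0612), GPI18 (-0.0387), HSP60 (0.1788), MYO1 (0.1638), NCP1 (-0.0813) and TIF34 (0.5238). Without NMD2 replicate 1, fitted with no block, it was turned for ARC35 (-0.1237), BET2 (-0.1138), CDC19 (0.3188), CIA1 (-0.3088), CNS1 (0.0563), GCD2 (0.0563), GPI12 (-0.0088), GPI15 (-0.2188), GPI18 (-0.2262), HEM13 (0.0438), HSP60 (0.4163), MYO1 (0.1862), RPB10 (-0.0737), TIF34 (0.6013) and YRB2 (-0.1487). Without NMD2 replicate 2, fitted with no block, it was turned for ARP2 (-0.0387), ARP9 (-0.0662), EBP2 (0.1438), ERG8 (-0.1263), FRS2 (-0.7212), ILV5 (-0.2662), IMP4 (0.0438), MCM1 (-0.2012), MEC1 (-0.2963), MET30 (-0.0813), NUP85 (-0.2063), PGK1 (-0.0837), SIS1 (-0.1312), SMC1 (-0.1013), SMT3 (-0.2738), SPT16 (-0.7062), SRB4 (-0.2263), SUB2 (-0.0063) and UBC9 (-0.0712). FRS2 differed by 0.25 and 0.255 in the 2 pairs. Arrays and technical replicates of 1 cross limit all values, and signal over background was not analysed here.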
